A study of Bos taurus with 2 samples.

Results

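The casein genes CSN1S1, CSN2, CSN1S2 and CSN3 were read on 2 bovine arrays, one for the exosome pellet of milk whey and one for the supernatant above that pellet. The 4 genes were taken by name from the array files, which list 18 probes for them among 43652 non-control probes and 15821 named genes. Each probe is identified below by its gene and its start, the position the files give for its first base in the transcript. Starts ran between 200 and 1065.

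Caseins are the main proteins of cow milk and are made by the secretory epithelium of the udder under control of prolactin and STAT5. Alpha-S1-casein (CSN1S1), beta-casein (CSN2) and alpha-S2-casein (CSN1S2) carry clusters of phosphoserine that bind calcium phosphate. Kappa-casein (CSN3) sits on the surface of the casein micelle, keeps it in suspension and is the protein that chymosin cuts when milk clots. The genes form a cluster, and the files place all 18 probes on chromosome 6 in the Btau_3.1 build, CSN1S1 at chr6:88300947-88309061, CSN2 at chr6:88329295-88332577 on the minus strand, CSN1S2 at chr6:88421964-88427455 and CSN3 at chr6:88532352-88534393.

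The exosome sample was the pellet that formed when whey was spun at 10000 g and 4 °C for 90 min, washed 2 times in PBS with repeat spins. The supernatant sample was the liquid drawn off above it. Both came from Holstein raw milk, RNA of 3 milk samples was mixed in equal parts for each fraction, and 100 ng was labelled with the dye Cy3. The speed is given as the labels have it, and it is low for pelleting vesicles as small as exosomes, so what each fraction held is uncertain. There was 1 array per fraction and no replicate, so no test was possible and the number of arrays limits the precision. In bulk RNA of this kind, fewer carriers of a transcript and less of it per carrier cannot be told apart.

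The arrays carry 60-base probes, and those printed here show where the readings of overlapping casein probes agreed and where they parted. Capitals mark the bases at which overlapping probes of 1 gene differ. The first set comes from CSN1S1, at chr6:88300947-88302538 for the probe starting at 404, chr6:88300951-88302542 for 408 and chr6:88302505-88303212 for 430, all on the plus strand.
CSN1S1 404: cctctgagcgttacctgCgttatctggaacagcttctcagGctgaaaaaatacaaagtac
CSN1S1 408: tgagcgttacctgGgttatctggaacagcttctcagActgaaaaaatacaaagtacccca
CSN1S1 430: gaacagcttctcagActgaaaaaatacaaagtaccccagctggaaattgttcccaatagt
The second set is 30 bases of each of the overlapping CSN2 probes, which lie at chr6:88329324-88330113 for 742, chr6:88329317-88330106 for 749 and chr6:88329295-88329354 for 771 on the minus strand.
CSN2 742: ttttgaattgactgcAactggaaatatggc
CSN2 749: ttttgaattgactgcGactggaaatatggc
CSN2 771: attgactgcGactggaaatatggcaacttt
The last is the CSN1S2 probe at 632, at chr6:88421964-88422023 on the plus strand, which was not well above background in the supernatant.
CSN1S2 632: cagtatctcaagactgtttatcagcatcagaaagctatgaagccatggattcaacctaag
The genome span of 8 of the 18 probes was longer than their 60 bases, so the files place these across at least 1 gap such as an intron, and the other 10 lie in an unbroken stretch. Whether a probe lies in coding or untranslated sequence was not analysed here.

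Every casein probe was far brighter in exosome RNA than in supernatant RNA, although casein signal in the supernatant was itself above most of that array. Every one of the 18 probes was called well above background by the scanner software on the exosome array, where 58.5% of all probes were, and 16 on the supernatant array, where 13.1% were. The processed signal, in the scanner's arbitrary units, ran from 109486 to 270033 with a median of 215800 in the exosome pellet, and from 7.77 to 1171 with a median of 75.5 in the supernatant. The groups did not overlap, but these signals are unscaled and the exosome array was brighter for most transcripts. Of 5305 probes called in both fractions, 80.2% had an exosome signal 2 or more times their supernatant signal. For the median gene, exosome RNA read 11.3-fold higher. The lowest casein signal was still above the 75th percentile of the supernatant array, a signal of 5.24.

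Several technical values bear on these readings. The software's own error was 10.0% of the signal for every casein probe in the exosome pellet and 10.0% to 27.4% in the supernatant. The 9 probes with 4 spots each that were detected on both arrays gave exosome minus supernatant differences with an SD of 0.18 (log2) between spots. No casein spot had a saturated pixel. Of the 43652 probes, 140 read at least as bright as the dimmest casein probe in exosome RNA and 7528 in supernatant RNA, and the brightest probe of the exosome array read 315266. The brightest spike-in control, which reports RNA added in a known amount at labelling, read 323480 in exosome RNA and 195702 in supernatant RNA, a difference of 0.73 (log2), against a median of 2.27 over the 8 spike-in probes measured on both arrays. Compression of bright signals was not tested.

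**Figure D1:**
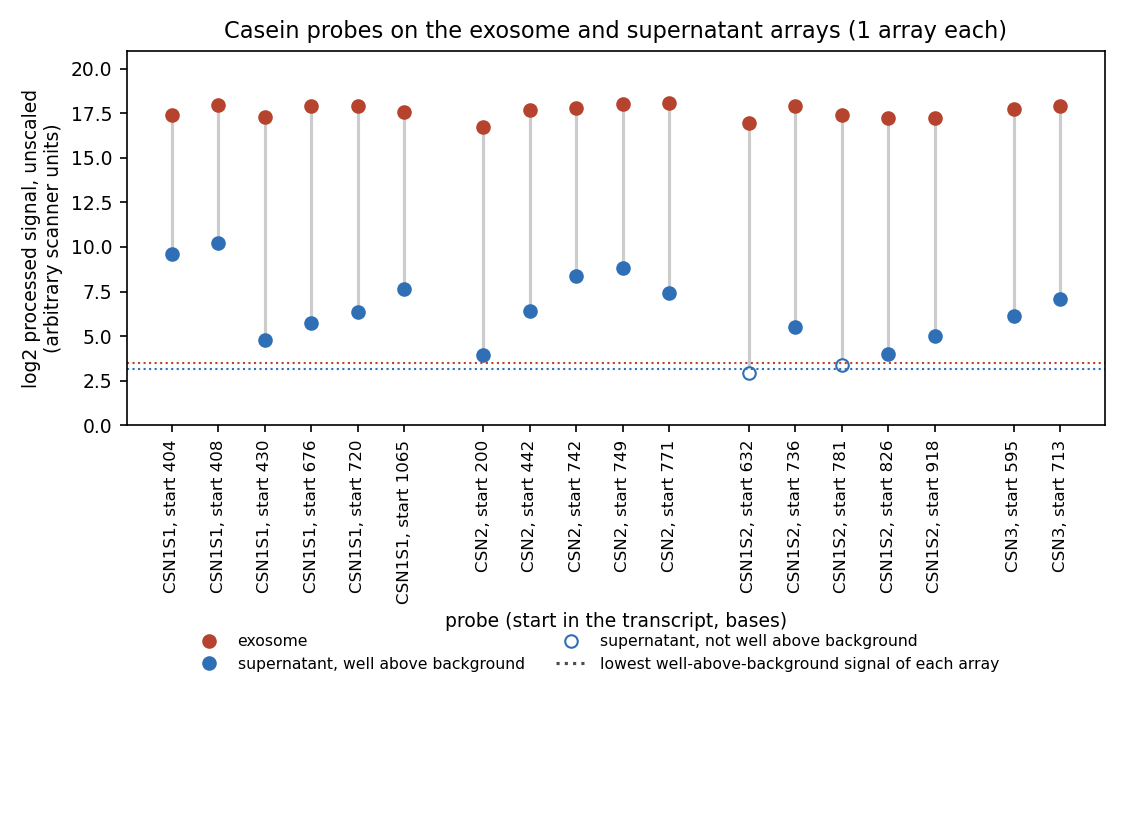
The log2 processed signal of each of the 18 casein probes is plotted against its gene and start, red for the exosome array and blue for the supernatant array, with open points where the probe was not well above background and dotted lines at the lowest signal called well above background on each array. The exosome points lie between 16.74 and 18.04 and the supernatant points between 2.96 and 10.19.

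CSN1S1, for alpha-S1-casein, was read by 6 probes, all well above background on both arrays. The probe at 404 read 172454 in exosome RNA and 779 in supernatant RNA. The probe at 408 read 253514 in exosome RNA and 1171 in supernatant RNA. The probe at 430 read 159824 in exosome RNA and 27.6 in supernatant RNA. These 3 probes overlap, and all 3 were far brighter in exosome RNA. Further along the transcript, the probe at 676 read 240713 in exosome RNA and 52.8 in supernatant RNA. The probe at 720 read 241241 in exosome RNA and 81.1 in supernatant RNA, and the probe at 1065 read 190626 in exosome RNA and 196 in supernatant RNA. All 6 probes read higher in exosome RNA, on unscaled arrays where 80.2% of all measured probes were at least 2-fold higher there. On the unscaled log2 scale the exosome minus supernatant difference was 10.28 ± 2.13 (SD, n = 6 probes), the mean of values between 7.76 and 12.50.

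CSN2, for beta-casein, was read by 5 probes, again all well above background on both arrays. The probe at 200 read 109486 in exosome RNA and 15.2 in supernatant RNA. The probe at 442 read 210073 in exosome RNA and 84.4 in supernatant RNA. Beta-casein is the main calcium-sensitive casein beside alpha-S1-casein, and 3 more of its probes, those with the highest starts, overlap. The probe at 742 read 227137 in exosome RNA and 327 in supernatant RNA. The probe at 749 read 267416 in exosome RNA and 451 in supernatant RNA, and the probe at 771 read 270033 in exosome RNA and 169 in supernatant RNA. All 5 probes read higher in exosome RNA, as 80.2% of all measured probes did by at least 2-fold before scaling. The unscaled difference was 10.68 ± 1.47 (log2, SD, n = 5 probes), with probes between 9.21 and 12.81.

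CSN1S2, for alpha-S2-casein, was well above background at all 5 probes in exosome RNA and at 3 of them in the supernatant. The probe at 632 read 128275 in exosome RNA and 7.77 in supernatant RNA, which is below 8.75, the lowest signal that was called well above background on that array. The probe at 781 read 174612 in exosome RNA and 10.5 in supernatant RNA, and it was not called either. For these probes only a bound can be given, the exosome signal over the higher of the probe's own supernatant signal and that lowest called signal: at least 14653-fold at 632 and at least 16587-fold at 781 before scaling, and at least 310-fold and 351-fold after it. The 3 other probes were measured on both arrays. The probe at 736 read 245339 in exosome RNA and 45.6 in supernatant RNA. The probe at 826 read 153217 in exosome RNA and 16.1 in supernatant RNA, and the probe at 918 read 155557 in exosome RNA and 32.4 in supernatant RNA. All 5 probes read higher in exosome RNA, against 80.2% of all measured probes at least 2-fold higher before scaling. The 3 probes measured on both arrays gave an unscaled difference of 12.61 ± 0.53 (log2, SD, n = 3 probes). The weaker detection flag of the software, which asks only that a signal be positive and significant, was met by all 18 casein probes on both arrays. By that flag 9566 of 15821 named genes were measured on both arrays, against 3374 by the main call.

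CSN3, for kappa-casein, was read by 2 probes, both well above background on both arrays. The probe at 595 read 221528 in exosome RNA and 69.8 in supernatant RNA. The probe at 713 read 246690 in exosome RNA and 138 in supernatant RNA. Both probes read higher in exosome RNA, against 80.2% of all measured probes at least 2-fold higher before scaling. The unscaled difference was 11.22 ± 0.58 (log2, SD, n = 2 probes), with values of 11.63 and 10.81.

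The 4 genes lay in the far exosome tail of the genes measured on both arrays, and CSN1S2 lay furthest of the 4. A gene called only in exosome RNA has no measured difference and no rank. Larger differences among such genes are therefore not excluded. Among 3374 genes with at least 1 probe well above background on both arrays, which are 21.3% of named genes, CSN1S2 had the 4th largest exosome minus supernatant difference, CSN3 the 25th, CSN2 the 53rd and CSN1S1 the 74th. Most genes were themselves brighter in the exosome pellet before scaling: the median gene stood 3.50 (log2) to that side. Relative to that median gene, CSN1S2 stood at 9.11, CSN3 at 7.72, CSN2 at 7.18 and CSN1S1 at 6.78. These are means over probes, and the probe values of CSN1S1 and CSN2 overlap those of each other and of CSN3, so the order among these 3 is within the spread of their probes. The measured probes of CSN1S2, between 12.23 and 13.21, lie above both CSN3 probes. The highest also lies above every CSN1S1 and CSN2 probe, and the other 2 overlap the upper ends of those ranges, 12.50 and 12.81. With its 2 undetected probes entered at their bound, CSN1S2 stood at 9.64.

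The size of the difference, not its direction, depended on the scaling. The main scaling subtracts from each array its 75th percentile, a signal of 248 in exosome RNA and 5.24 in supernatant RNA, and takes 5.56 (log2) off every difference. The supernatant value is below 8.75, the lowest signal called well above background on that array. The scaled folds and counts thus rest on a reference near background in the supernatant. After this scaling, CSN1S2 was 132-fold higher in the exosome pellet, CSN3 50.4-fold, CSN2 34.6-fold and CSN1S1 26.2-fold. All 4 genes and all 16 measured probes passed 2-fold toward the exosome side, against a background of 18.1% of genes and 20.0% of probes measured on both arrays (80.2% of probes before scaling). The background moves with the scaling: without any, 83.3% of genes passed 2-fold toward the exosome pellet and 1.33% toward the supernatant, with the 75th percentile 18.1% and 63.5%, and with the spike-in controls 52.8% and 19.6%. Scaled to the spike-ins, the casein differences were 8.01 for CSN1S1, 8.41 for CSN2, 8.95 for CSN3 and 10.34 for CSN1S2 (log2). At least 2-fold above the median gene, a measure that no constant scaling moves, stood all 4 caseins and 37.3% of genes.

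**Figure D2:**
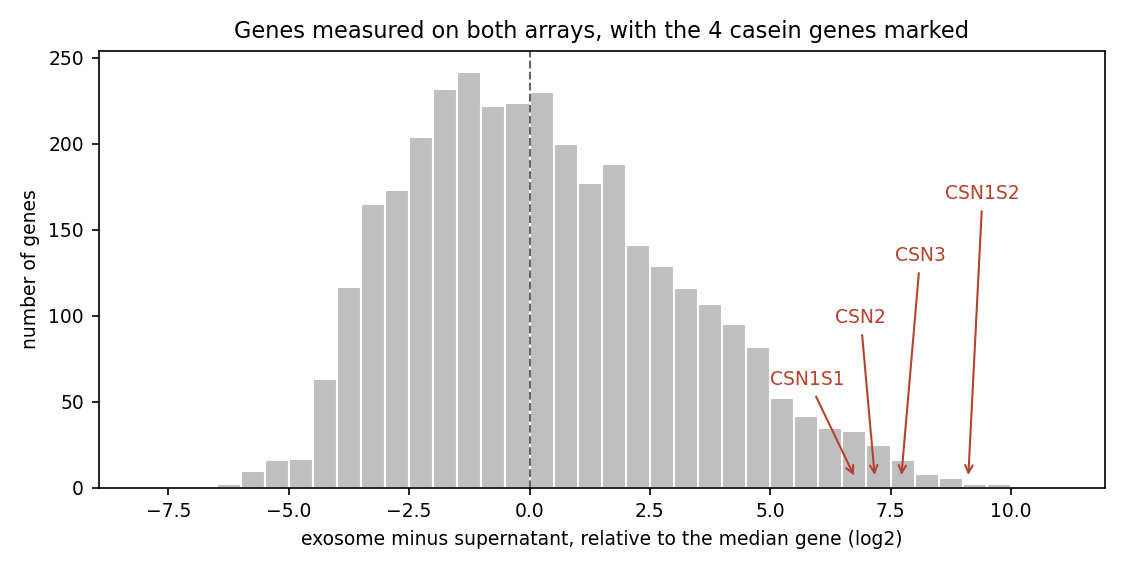
The histogram counts the 3374 genes measured on both arrays by their exosome minus supernatant difference relative to the median gene (log2, dashed line at 0), with arrows at the caseins. All 4 lie in the right tail, CSN1S1 at 6.78 and CSN1S2 at 9.11.

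The genes next to each casein in this order were picked by rank, by the size of the difference over the 2 arrays. FASN, the fatty acid synthase that makes milk fat, stood just above CSN1S2 with 9.77 relative to the median gene, and TPT1, a translationally controlled protein, just below with 9.05. PNP, a purine nucleoside phosphorylase, stood just above CSN3 with 7.74, and EEF1A1, a translation elongation factor, just below with 7.69. RPL5, a ribosomal protein, was next above CSN2 with 7.18, and TFF3, a secreted trefoil peptide, next below with 7.12. PCBP1, an RNA-binding protein, was next above CSN1S1 with 6.79, and RPS4Y1, a ribosomal protein under the name the array gives it, next below with 6.78. The gap to the casein was 0.07 or less (log2) in every case but FASN, where it was 0.66.

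Probes of 1 casein gene did not give 1 difference, and their order along the transcript was not the same in each gene. Across all 18 casein probes, exosome signal varied 2.47-fold from dimmest to brightest (log2 SD 0.38). Supernatant signal varied 151-fold (log2 SD 2.11). Differences between probes thus followed mainly the supernatant readings. Why those readings varied was not tested. In CSN2 the unscaled difference was largest at the probe nearest the 5′ end, 12.81 at start 200, against 11.28 at 442 and 9.21 to 10.64 for the probes from 742 on. CSN3 had 11.63 at 595 and 10.81 at 713. CSN1S2 had 12.39 at 736, 13.21 at 826 and 12.23 at 918, with nominal bounds of 13.84 at 632 and 14.02 at 781. In CSN1S1 the smallest differences were at the lowest starts, 7.79 at 404 and 7.76 at 408, followed by 12.50 at 430, 12.15 at 676, 11.54 at 720 and 9.93 at 1065. From the probe at 430 on, which leaves out those at 404 and 408, the CSN1S1 differences became smaller with higher start. Over all 6 CSN1S1 probes the rank correlation of start with difference was 0.37, against -0.7 over the 5 of CSN2. Taking the measured probe with the highest start minus the one with the lowest, CSN2 gave -2.17, CSN3 -0.82, CSN1S2 -0.16 and CSN1S1 2.14 (log2). The CSN1S2 value is less in size than the spot SD of 0.18, so its sign is not resolved. It leaves out the lowest-start probe at 632, whose nominal bound lies above the 12.23 at 918. With that probe the CSN1S2 value would lie further below 0. The value was below 0 in 3 of 4 caseins, against 48.8% of 473 transcripts with at least 2 measured probes, and 44.3% of the 314 whose outer probes start at least 100 bases apart, as they do in all 4 caseins. With 4 genes such a share says little. The median over those transcripts was 0.03, and 0.44 (log2) over those 314.

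**Figure D3:**
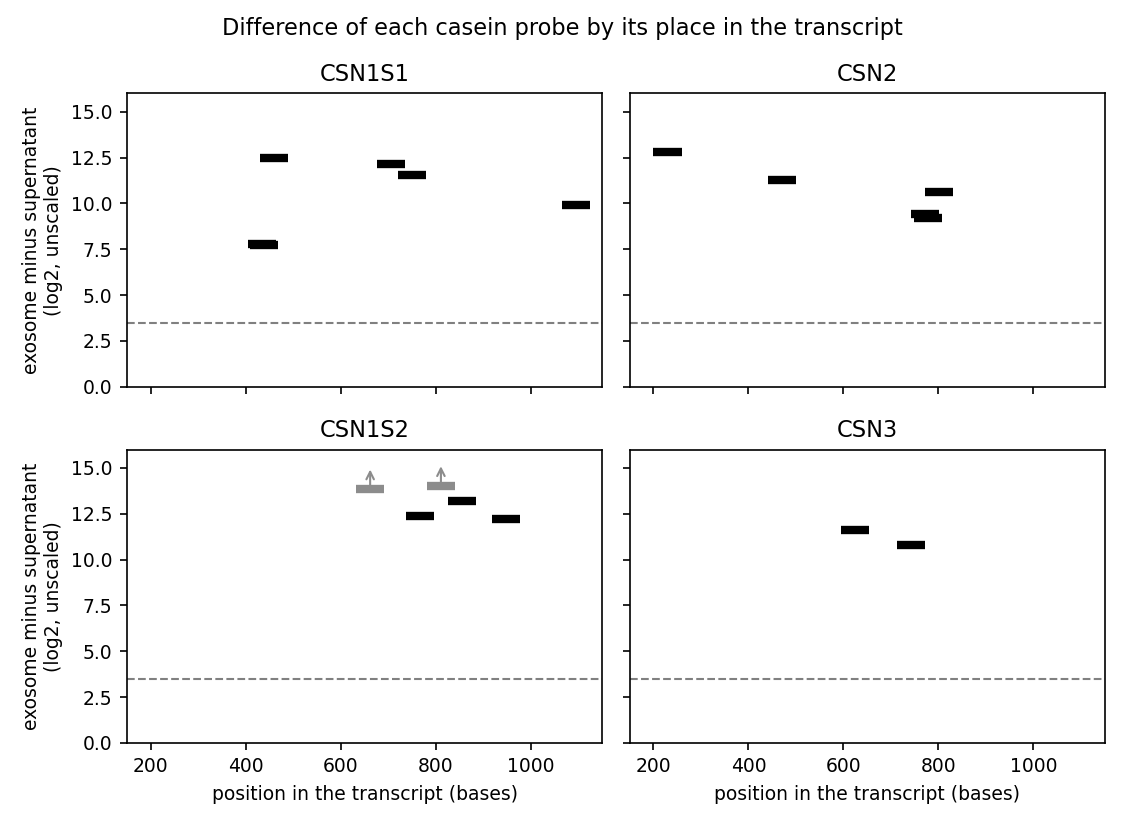
Each bar is a casein probe drawn over its 60 bases of transcript (x axis, bases) at its unscaled exosome minus supernatant difference (y axis, log2), with grey bars and arrows for bounds and a dashed line at the median gene, 3.50. CSN1S1 shows overlapping probes near 7.8 and 12.5, and CSN2 shows lower bars at higher positions.

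Overlapping probes of 1 gene gave close differences in some pairs and distant ones in others. The CSN1S1 probes at 404 and 408 share 56 positions and differ at C18G and G41A, counted from 1 at the 5′ end of the 404 probe with its base first. Their differences were 7.79 and 7.76, a change of -0.03 (second probe minus first), less in size than the spot SD of 0.18. The probes at 408 and 430 share 38 positions with no base changed, and their differences of 7.76 and 12.50 lie 4.74 apart (log2). The CSN2 probes at 742 and 749 share 53 positions and differ at A39G, counted from the 5′ end of the 742 probe, and the change was -0.23. The probes at 749 and 771 share 38 positions with no base changed and lie 1.43 apart. The CSN2 probes at 742 and 771 share 31 positions, differ at A39G and lie 1.20 apart. The CSN1S1 probes at 404 and 430 share 34 positions, differ at G41A and lie 4.71 apart, and those at 676 and 720 share 16 positions with no base changed, a change of -0.62. Some of these 7 measured pairs have a probe in common. The pairs with the longest overlaps, 56 and 53 positions, had the smallest gaps, and the pair with the shortest, 16 positions, had the next smallest. The cause of the gaps was not tested. The GC content of the casein probes was 35% to 45%, with a median of 42.5% against 45% for all probes, and none held a run of more than 3 G.

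The probe spread of CSN1S1 and CSN2 was above the median for this array but under its 90th percentile, and that of CSN3 and CSN1S2 was below the median. The SD between a gene's measured probes was 2.13 (log2) for CSN1S1 and 1.47 for CSN2, against a median of 1.06 and a 90th percentile of 2.91 over the 122 genes with at least 3 measured probes. It was 0.53 for CSN1S2. For CSN3, with 2 probes, it was 0.58, against a median of 0.90 over the 523 genes with at least 2. The SD between spots of 1 probe was 0.18, so probes of 1 gene differed more than repeat spots did.

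Other secreted milk proteins measured on both arrays stood above the median gene, as the caseins did, although LPO was below 0 (-0.99, log2) after the 75th percentile scaling. Of 11 listed genes, 10 were detected in the exosome pellet, against 69.2% of named genes, and 4 in the supernatant, against 22.8%. GLYCAM1, a mucin-like milk protein, lay among the caseins at 7.59 relative to the median gene. LALBA, the regulatory subunit of lactose synthase, stood at 5.12, PAEP, beta-lactoglobulin, at 4.22 and LPO, lactoperoxidase, at 1.07. The probes of LALBA and PAEP disagreed widely, with SDs of 4.64 and 3.64 (n = 3 probes each). The median of these 4 was 4.67, against 7.45 for the 4 caseins. LTF, SPP1, MFGE8, PIGR, FOLR1 and B2M were called in exosome RNA and not in supernatant RNA, and ALB, serum albumin, on neither array. LTF, the iron-binding lactoferrin, had a nominal bound of 230-fold toward the exosome pellet before scaling and of 4.86-fold after it.

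Of 9 listed neighbours of the caseins on the chromosome, 6 were on the array, and 2 of these were detected in exosome RNA and none in supernatant RNA, against 69.2% and 22.8% of named genes. STATH, a statherin gene, was not well above background in the supernatant. Its nominal bound was 21.8-fold toward exosome RNA before scaling, with no fold to give after it because the bound was under 1. SULT1E1, an estrogen sulfotransferase, was detected in the exosome pellet by 1 of its 4 probes. ODAM, AMTN, AMBN and ENAM, which code for tooth and enamel matrix proteins, were not well above background on either array.

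All 12 listed genes that control casein transcription were detected in exosome RNA, against 69.2% of named genes, and 6 in supernatant RNA, against 22.8%. ELF5, an epithelial transcription factor needed for milk secretion, stood closest to the caseins. Its probe at 671 read 87883 in exosome RNA and 42.1 in supernatant RNA, a difference of 7.53 relative to the median gene. Its probe at 521 read 50682 in exosome RNA and 2.81 in supernatant RNA, not well above background. YY1 and NFIB, both DNA-binding factors, stood at 5.45 and 5.43, each by 1 measured probe. NR3C1, the glucocorticoid receptor, stood at 2.35, with an SD of 3.94 (log2) between its 2 measured probes. CEBPB stood at -0.05 and STAT5A, a prolactin-activated factor, at -1.67, each measured on both arrays by 1 probe. The prolactin receptor PRLR, its kinase JAK2, STAT5B, CEBPD, CISH and SOCS2 passed the call in exosome RNA and missed it in supernatant RNA.

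Of 12 genes for the chaperones and enzymes that fold, phosphorylate or glycosylate caseins, 10 were detected in exosome RNA and 3 in supernatant RNA, shares not far from the 69.2% and 22.8% of named genes. P4HB, a protein disulfide isomerase, stood at 6.28 relative to the median gene by 1 of its 4 probes. ST3GAL1, a sialyltransferase, stood at 1.55 and C1GALT1, which extends O-glycans such as those on kappa-casein, at -1.26. FAM20C, the Golgi kinase that phosphorylates caseins, was called in exosome RNA and not in supernatant RNA. Its nominal bound was 38.0-fold before scaling. After scaling its bound was under 1, so no fold can be given on that scale. GALNT2 and GALNT3, which start O-glycans, were not well above background on either array.

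Cell type markers are given beside the caseins, and their sums are unscaled, on arrays where the median gene was itself 11.3-fold higher in exosome RNA. All 6 markers of secretory epithelium were detected in exosome RNA and 3 in supernatant RNA, against 69.2% and 22.8% of named genes. Their summed unscaled signal was 239707 in exosome RNA and 550 in supernatant RNA. ELF5, which is also among the transcription genes, gave most of the exosome sum through its probe signals of 50682 and 87883. KRT19, a luminal keratin, stood at 5.83 relative to the median gene and KRT8, another, at 1.67, and KRT8 was below 0 (-0.39) after the 75th percentile scaling. The 2 measured probes of each disagreed widely, with SDs of 3.07 for KRT19 and 2.89 for KRT8 (log2). KRT18, EPCAM and CDH1 were not well above background in the supernatant, and their bounds after scaling were under 1. Of 7 leukocyte markers, 2 were detected on each array, with summed signals of 1581 in exosome RNA and 763 in supernatant RNA, and CD3E, ITGAM, CSF3R, CXCR2 and CD79B were not well above background on either. Of 5 basal and myoepithelial markers, 3 were detected on each array, with sums of 614 in exosome RNA and 127 in supernatant RNA, and KRT5 and CNN1 on neither. Of 3 red cell markers, HBA was detected on both arrays and HBB and ALAS2 on neither, and the sums were 23463 in exosome RNA and 1143 in supernatant RNA, with HBA at -1.20 (log2) after scaling. The part of these cells in the casein difference was not tested.

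**Figure D4:**
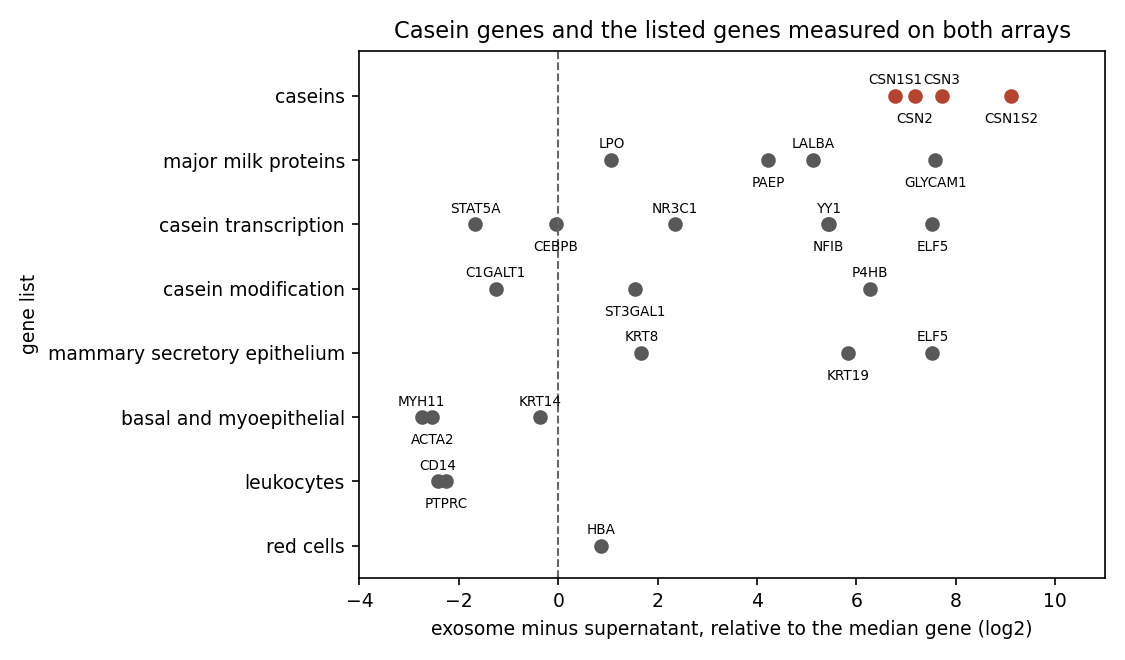
Each point is a gene measured on both arrays, placed by its exosome minus supernatant difference relative to the median gene (log2, x axis) in the row of its list (y axis), with the caseins in red. The 4 caseins lie from 6.78 to 9.11, with GLYCAM1 at 7.59 and ELF5 at 7.53 among them and the leukocyte and myoepithelial genes below 0.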

How the data were processed

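Per the file headers, Agilent Feature Extraction 10.7.3.1 read both 1-colour arrays, and probe coordinates are those of Btau_3.1. The deposited intensity is the processed signal, which the software corrected for background and spatial trend array by array, without a scaling between arrays. In the authors' deposited table, log2 values match this signal to within 0.001 at all 43602 probes compared, with medians of 4.81 for exosome and 1.32 for supernatant. Further steps of the authors are not stated.

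Control spots and outlier spots (5 for exosome, 2 for supernatant) were dropped, and repeat spots averaged. Probes well above background on both arrays were averaged to give the difference of a gene. Symbols were updated through the RefSeq table of assembly ARS-UCD2.0, which holds the accession of 26739 probes; 33380 probes then had 1 symbol and 10272 none. Each array was scaled to its 75th percentile, and a difference of 2-fold counted as a call. Genes were named by rank next to each casein or from lists of milk proteins, neighbours, regulators, enzymes and cell markers. The members and lists were chosen with earlier results of these data known. Python 3.11.15, pandas 2.3.3 and limma 3.58.1 (normexp, offset of 50) were used, and the calculation was tested on simulated data.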

Additional observations from a re-analysis of the deposited data

How the results depend on the processing

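All 4 caseins passed 2-fold toward the exosome side under every alternative scaling, background correction, filter, probe choice and source of values tried. The share of all measured genes that did so ran from 10.8% with quantile normalization to 83.3% with no scaling. It was 18.1% with the 75th percentile, 35.4% with normexp and 52.8% with the spike-ins. The median casein difference, 5.38 (log2) with 75th percentile scaling, was 10.95 with none, 7.46 with scaling to the array median, 8.68 with the spike-ins, 6.15 with quantile normalization, 7.93 with normexp, 5.12 with the stricter filter on dim probes (4 times the lowest called signal), 4.45 with the brightest probe per gene and 5.16 with the probe of highest start. Relative to the median gene it was 7.45, and 8.88 with quantile normalization, 7.98 with normexp, 8.04 with no filter on dim probes, 6.46 with the brightest probe and 7.21 with the probe of highest start. Averaging overlapping probes first, chosen after seeing the data, gave 5.69 and 7.75. Other alternatives moved these medians by less than the spot SD of 0.18. With each probe left out in turn, also chosen after seeing the data, the value relative to the median gene ran from 6.33 to 7.28 for CSN1S1, 6.64 to 7.54 for CSN2, 8.81 to 9.30 for CSN1S2 and 7.31 to 8.13 for CSN3. CSN1S1 fell furthest with its brightest probe alone, to 4.20. Of the 18 casein probes, 18 passed the weaker flag and 12 the stricter filter in the supernatant. Of 15821 named genes, 9566 were measured on both arrays with the weaker flag and 1296 with the stricter filter. With 1 array per fraction no array could be left out. No paired analysis was possible because each fraction has 1 array and no test was run. Signal over background limits CSN1S2 most, whose supernatant probes read 7.77 to 45.6.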

Other observations

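A further probe, outside the casein names and looked at after the values were seen, is described in the files as alpha-S1-casein from a consensus of expressed sequences. It lies at chr6:88300953-88304437 in Btau_3.1. Its first 23 bases, in capitals, match bases 3 to 25 of the CSN1S1 probe at 408, and its bases 18 to 38 match bases 40 to 60 of the CSN1S1 probe at 430, so it joins the start of one to the end of the other without the stretch between.
Consensus probe: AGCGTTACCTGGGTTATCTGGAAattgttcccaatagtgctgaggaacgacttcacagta
It read 198338 in exosome RNA and 265 in supernatant RNA and was well above background on both arrays. Its unscaled difference of 9.55 (log2) lies between the 7.76 of the probe at 408 and the 12.50 of the probe at 430.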
